A study of Homo sapiens with 44 samples.

Results

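The 42 genes described here code for proteins of the lysosome, with 2 transcription factors that act on lysosomal genes. They were given as a list of symbols and were looked up through their Ensembl identifiers in GENCODE release 29, among 58721 gene identifiers in each count table. All 42 passed the low-count filter in every table. By role they comprise 5 membrane proteins and channels, 10 cathepsins and other peptidases, 13 glycosidases, 5 sulfatases, 7 lipid hydrolases and lipid transfer proteins, and the factors TFEB and TFE3.

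Lysosomes are acidic organelles in which hydrolases break down proteins, glycans, glycogen and lipids delivered by endocytosis and autophagy. Most soluble hydrolases carry a mannose 6-phosphate tag that directs them from the Golgi, and a proton pump, the V-ATPase, keeps the lumen acidic. TFEB and TFE3 bind short sequences built around the letters CACGTG in the promoters of many lysosomal genes, and nutrient-sensing kinase complexes on the lysosomal surface hold these factors in the cytoplasm. In carcinoma cells lysosomal proteases can also be secreted and act outside the cell.

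The samples were the human lung adenocarcinoma cell line A549. The lines het1, het2 and homo, named for their genotype, carry p300 truncated at its TAZ2 domain, a zinc-binding region of this acetyltransferase that contacts transcription factors, while WT denotes unedited parental A549. Each line is represented by 3 libraries of cultured cells and by 4 of xenograft tumours taken at day 30. A further 16 libraries came from tumours of het1 and WT given SAHA (vorinostat, an inhibitor of histone deacetylases) or the vehicle DMSO for 4 weeks, again 4 per group. All 44 libraries thus share the A549 background, the het genotype is represented by 2 lines and the homo genotype by 1, and the sources used here do not state whether a line is a clone. Nothing in the labels ties the libraries of a group to different cultures or mice, so each p-value reflects only how these libraries vary, and that variation may be technical. Cell libraries totalled 61168373 to 93444327 counts, those of day 30 tumours 63243289 to 99593214 and those of treated tumours 61937591 to 82475298.

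Counts of EP300, the gene for p300, are given as CPM, meaning counts relative to a TMM-adjusted library size set to 1e+06 in each table. They were 182 to 188 CPM in het1 cells, 149 to 156 in het2 cells and 188 to 193 in homo cells, against 111 to 119 in WT cells. The log2 fold change of EP300 was 0.69, 0.42 and 0.73 in het1, het2 and homo cells and 0.21 (edgeR adjusted p 0.072, not called), 0.24 and 0.66 in their day 30 tumours. Gene-level counts do not show where a transcript is truncated, so they do not check the genotype. Summed CPM of 7 epithelial markers was lower in every edited line: 2583 to 2703 in het1 cells, 2020 to 2088 in het2 cells and 833 to 850 in homo cells, against 6475 to 6824 in WT cells. The sum was lower in the tumours too, with 3515 to 4094, 4727 to 5329 and 4656 to 5197 in het1, het2 and homo tumours, against 6807 to 7103 in WT tumours. The part of this shift in the lysosomal results was not tested. Exons of CTSD, IDS, MAN2B1, MANBA, HEXA and TPP1 overlap another annotated gene on the same strand by more than 500 bases, and those of PPT1, CTSA, NPC1, IDUA and HEXA a gene on the opposite strand by as much. A further 11 members, FUCA2 among them, have smaller overlaps only. Counts of all these genes may depend on how reads falling in both genes were treated.

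Promoter sequence was matched in RefSeq (GRCh38.p14) for 31 of the 42 genes, as the 250 bases before and 50 after each gene's start. The letters CACGTG, which read the same on both strands, occurred in 8 of these 31 promoters (25.8%), those of LAMP1, GALNS, GAA, MCOLN1, CTSA, NEU1, CD63 and CTSD. Among all 27305 promoters of the table the share was 7.43%, and among the promoters of genes tested here it was 9.85%. The longer palindrome TCACGTGA, which contains CACGTG, was found in 5 of the 31 (16.1%). It was found in 1.04% of all promoters and in 1.76% of those of genes tested here. The stretches of CD63 and CTSD, which held 1 copy each, are left out. The stretches shown are those with more than 1 copy and that of NEU1, which held 1. Each runs 5′ to 3′ on the gene's strand, with CACGTG in capitals.
LAMP1, chr13:113297020-113297243, plus strand: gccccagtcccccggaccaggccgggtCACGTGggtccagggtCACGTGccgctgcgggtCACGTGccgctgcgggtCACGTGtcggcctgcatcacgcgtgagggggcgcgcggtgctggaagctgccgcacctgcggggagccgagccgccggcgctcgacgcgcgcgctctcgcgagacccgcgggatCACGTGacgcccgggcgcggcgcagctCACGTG
GALNS, chr16:88856948-88857148, minus strand: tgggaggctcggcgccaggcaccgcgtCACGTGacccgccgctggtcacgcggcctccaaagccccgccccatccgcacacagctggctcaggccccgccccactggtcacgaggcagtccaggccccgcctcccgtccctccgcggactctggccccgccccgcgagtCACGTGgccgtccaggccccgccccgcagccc
GAA, chr17:80101478-80101580, plus strand: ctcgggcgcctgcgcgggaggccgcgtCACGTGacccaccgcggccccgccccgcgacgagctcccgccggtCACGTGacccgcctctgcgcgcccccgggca
MCOLN1, chr19:7522556-7522623, plus strand: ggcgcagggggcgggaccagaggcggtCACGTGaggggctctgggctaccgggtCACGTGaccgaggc
CTSA, chr20:45891266-45891334, plus strand: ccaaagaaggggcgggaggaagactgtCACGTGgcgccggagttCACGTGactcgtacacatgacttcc
NEU1, chr6:31862915-31862974, minus strand: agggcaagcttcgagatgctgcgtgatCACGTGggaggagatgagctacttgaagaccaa
The LAMP1 promoter held 6 copies, the first starting 192 bases and the last 1 base before the gene's start, which it spans. GALNS, GAA, MCOLN1 and CTSA held 2 copies each and NEU1 held 1. These matches describe the letters alone and do not show that a factor binds there. LAMP2, CTSB, CTSK, CTSS, HEXA, MANBA, NAGLU, ARSA, SGSH, ASAH1 and PSAP were not among the promoters used here.

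In culture most of the 42 genes were higher in the edited lines than in WT. A gene was called when its Benjamini-Hochberg adjusted p from edgeR's quasi-likelihood test was under 0.05, and called raised or lowered by the sign of the log2 fold change (log2FC). Against WT, 28 genes were called raised and 9 lowered in het1 cells, where 32% of all genes tested were called raised and 30.8% lowered. In het2 cells 36 were raised and 4 lowered, with 35.1% and 33.3% of all genes. In homo cells 28 were raised and 8 lowered, with 35.4% and 35.1% of all genes. The median log2FC of the 42 genes was 0.22 in het1, 0.81 in het2 and 0.44 in homo cells, whereas the median of all genes tested was 0.025, 0.017 and 0.005. A rise of at least 2-fold was reached by 0 genes in het1 cells, 14 in het2 cells and 7 in homo cells, where 12%, 15.5% and 16.6% of all genes reached it.

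Tumours at day 30 showed the same predominance of rises. In het1 tumours 29 genes were raised and 2 lowered against WT tumours, with 26.8% and 24.8% of all genes tested. In het2 tumours 29 were raised and 6 lowered, with 24.4% and 24.8% of all genes. In homo tumours 35 were raised and 3 lowered, with 27.1% and 27.7% of all genes. The median log2FC of the 42 was 0.37, 0.40 and 0.60 in het1, het2 and homo tumours, against 0.017, -0.015 and 0.011 for all genes. A rise of at least 2-fold was reached by 4, 1 and 11 of the 42, and by 10.5%, 8.17% and 10.4% of all genes. Among genes with a mean of at least 5 CPM, a level that most of the 42 reach, raised calls made up 29.1%, 29.3% and 29.7% in these tumours and 35.9%, 38% and 36.5% in the cells of the same lines. Libraries of the line and of WT did not overlap for 35, 40 and 34 of the 42 genes in het1, het2 and homo cells, and for 65.1%, 71.2% and 72.3% of all genes. In their tumours this held for 29, 33 and 36 of the 42, and for 48.9%, 44.8% and 52% of all genes. In bulk tissue, fewer cells of a type and less RNA per cell cannot be told apart.

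**Figure D1:**
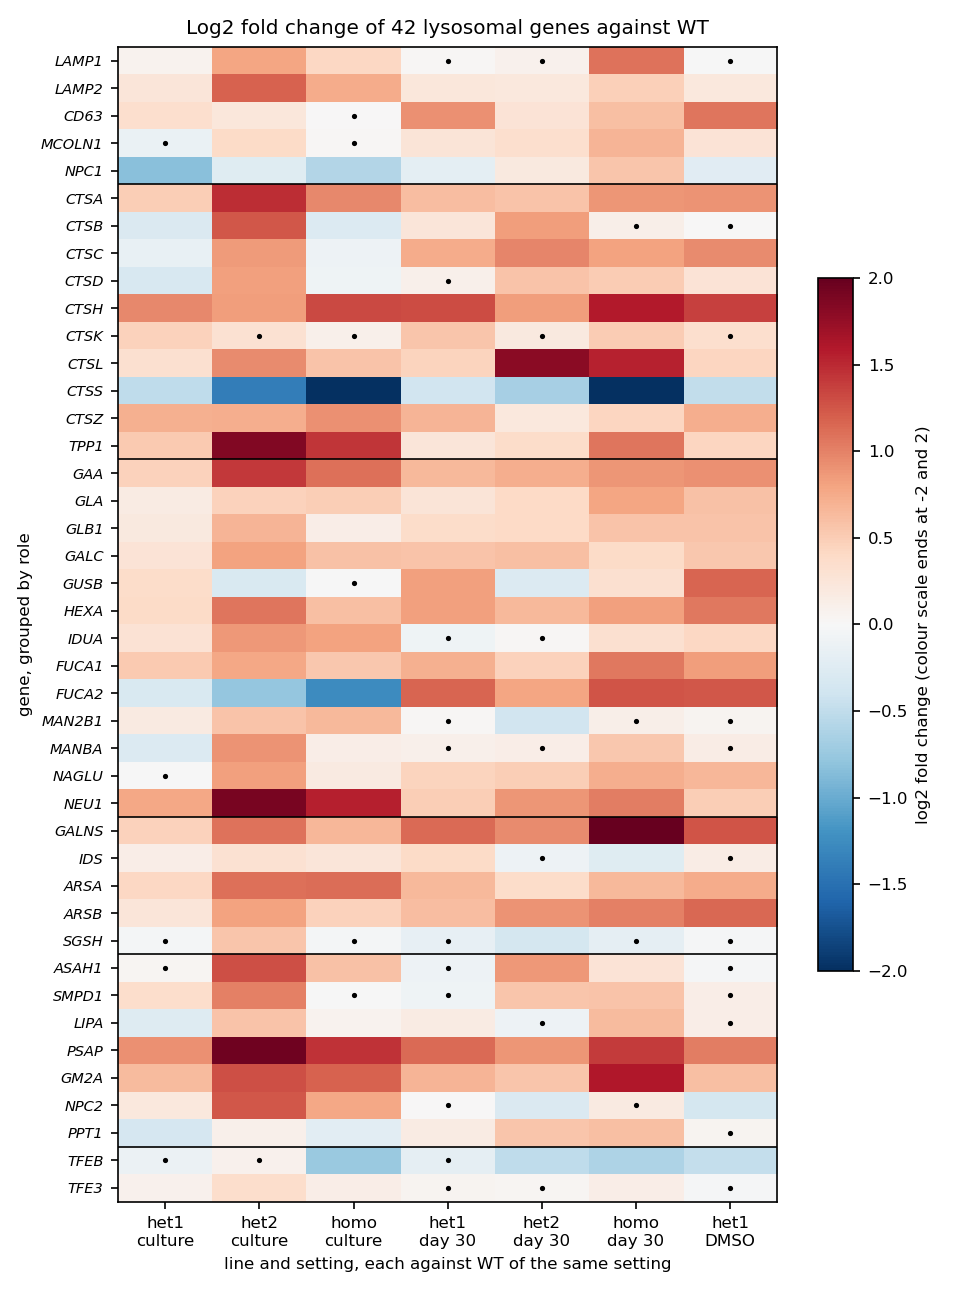
Log2 fold change against WT of the 42 genes (rows, ordered by role) in 7 comparisons (columns: het1, het2 and homo in culture, the same lines as day 30 tumours, and het1 in DMSO tumours). Colour ends at 2 and -2 on the log2 scale and a dot marks a gene that was not called. Most cells are on the raised side, CTSS is lowered in all 7 columns, and FUCA2 and NPC1 change sides between culture and homo tumours.

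In all 3 edited lines, 24 genes were raised in culture, as were 21% of all genes tested, and 24 in tumours, as were 11.8%. Of the 42, 18 were raised in both settings in every line, against 6.66% of the genes tested in both tables. These 18 were LAMP2, CTSA, CTSH, CTSL, CTSZ, TPP1, GAA, GLA, GLB1, GALC, HEXA, FUCA1, NEU1, GALNS, ARSA, ARSB, PSAP and GM2A. CTSS was the 1 gene of the 42 lowered in all 6 comparisons, against 5.81% of the genes tested in both tables. The comparisons of a setting share their WT libraries, so these counts are not 3 separate observations.

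Counts per gene length put PSAP first in every group. PSAP, the precursor of the saposins that activate sphingolipid hydrolases, averaged 1731, 3480 and 2629 TPM (CPM-like values that also divide by each gene's union exon length) in het1, het2 and homo cells, against 849 TPM in WT cells. CTSL followed in cells, at 1057, 1587 and 1301 TPM in the edited lines and 775 TPM in WT. In tumours CD63 ranked second in het1 and in WT, at 1346 and 741 TPM, whereas CTSL ranked second in het2 and homo, at 1510 and 1238 TPM. TFEB had the lowest TPM of the 42 in all 8 groups of cells and day 30 tumours, from 0.877 to 2.43 TPM.

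Of the 5 membrane proteins and channels, 3, 4 and 2 were raised in het1, het2 and homo cells and 3, 4 and 5 in their tumours. Of all genes tested, 32%, 35.1% and 35.4% were raised in these cells and 26.8%, 24.4% and 27.1% in these tumours. The count in homo cells is near that share. LAMP1, an abundant glycoprotein of the lysosomal membrane, had 142, 138 and 142 CPM in het1 cells, 229, 239 and 230 in het2 cells, 182, 181 and 172 in homo cells, and 135, 137 and 131 in WT cells. All het2 and homo libraries lay above all WT libraries, and het1 did too by a small margin. In tumours LAMP1 had 114, 113, 112 and 120 CPM in het1, 121, 122, 122 and 117 in het2, 246, 230, 243 and 245 in homo, and 117, 110, 111 and 116 in WT. Here homo stood apart, the het1 libraries overlapped WT, and the het2 libraries lay at or just above the highest WT library. The log2FC was 0.07, 0.80 and 0.41 in het1, het2 and homo cells and 0.02, 0.08 and 1.09 in their tumours (edgeR SE 0.029 in cells, 0.043 to 0.044 in tumours), with an adjusted p of 3.21e-14 in homo tumours and 0.76 and 0.115 in het1 and het2 tumours. The het1 call in culture (adjusted p 0.0428) was lost without WT replicate 1 or 3 and without het1 replicate 1 or 3, with log2FC of 0.045 to 0.064 and an adjusted p up to 0.221.

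LAMP2, the second main glycoprotein of the membrane and a receptor for chaperone-mediated autophagy, rose by 0.24, 1.18 and 0.75 on the log2 scale in het1, het2 and homo cells. In tumours its rises were 0.23, 0.22 and 0.47. CD63, a tetraspanin of late endosomes and secreted vesicles, had 1037, 1126, 1077 and 1213 CPM in het1 tumours against 630, 531, 600 and 593 in WT tumours, with no overlap. Its log2FC was 0.92 (SE 0.069, edgeR adjusted p 5.57e-10) in het1 tumours, 0.28 in het2 and 0.60 in homo. MCOLN1, the TRPML1 calcium channel, was raised in the tumours of all 3 lines (0.26, 0.34 and 0.68) but in culture was called in het2 cells alone (0.39). The het1 tumour call of MCOLN1 was lost without WT replicate 1, 2 or 4 and without het1 replicate 4, with log2FC of 0.16 to 0.27 and an adjusted p up to 0.17.

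NPC1, which exports cholesterol from the lysosomal lumen, was the membrane protein lowered in every edited line in culture. It had 67.2, 64.2 and 64.3 CPM in het1 cells, 98.2, 98.5 and 98.6 in het2 cells and 76.4, 76.7 and 79.8 in homo cells, against 120, 116 and 114 in WT cells. Every edited library lay below every WT library, and log2FC was -0.84, -0.24 and -0.58 (SE 0.031 each; largest adjusted p 2.18e-08). In tumours NPC1 had 46.1, 45.8, 47.4 and 46.1 CPM in het1, 60.5, 61.8, 66.4 and 54.3 in het2, 78.9, 73.5, 79.3 and 80.1 in homo and 49.3, 57.9, 55.1 and 51.1 in WT. The het1 libraries lay below WT, the homo libraries above, and het2 overlapped WT. The log2FC was -0.20 (adjusted p 0.00818), 0.19 (0.0134) and 0.55 (1.38e-07). The het2 tumour call was lost without WT replicate 0 and without het2 replicate 3, with log2FC of 0.14 to 0.15 and an adjusted p up to 0.0558. Exons of NPC1 overlap 604 bases of RMC1 on the opposite strand, and the sources used here do not state the strand setting of the counting.

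Among the 10 cathepsins and other peptidases, 6, 8 and 5 were raised and 4, 1 and 4 lowered in het1, het2 and homo cells. In tumours 8 were raised and 1 lowered in each line. Raised shares of all genes were 32%, 35.1% and 35.4% in these cells and 26.8%, 24.4% and 27.1% in these tumours. Lowered shares of all genes in these cells were 30.8%, 33.3% and 35.1%, and the lowered counts in het1 and homo cells are not far from them. TPP1, which removes tripeptides from the ends of proteins, had 96.0, 97.3 and 93.5 CPM in het1 cells, 239, 242 and 236 in het2 cells and 177, 178 and 179 in homo cells, against 65.2, 68.4 and 65.1 in WT cells. No library of an edited line overlapped WT. Its log2FC was 0.53 (SE 0.029, adjusted p 5.31e-17), 1.85 (SE 0.029, 4.84e-32) and 1.43 (SE 0.029, 4.09e-29). In tumours TPP1 had 155, 152, 154 and 166 CPM in het1, 173, 176, 169 and 167 in het2, 277, 295, 264 and 279 in homo, and 146, 131, 129 and 124 in WT. The libraries again did not overlap WT, but the rises in het1 and het2 were smaller, at 0.24 (SE 0.053) and 0.37 (SE 0.053), against 1.07 (SE 0.054) in homo.

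CTSH, an aminopeptidase, had 28.2, 26.7 and 27.8 CPM in het1 cells, 26.5, 25.3 and 23.8 in het2 cells and 35.0, 36.6 and 33.7 in homo cells, against 14.5, 13.9 and 14.0 in WT cells. In tumours it had 51.5, 56.8, 50.6 and 52.0 CPM in het1, 38.4, 37.1, 34.6 and 42.3 in het2 and 61.7, 63.9, 65.3 and 64.8 in homo, against 23.2, 20.5, 19.5 and 21.7 in WT. The order of the lines was the same in both settings, homo highest and WT lowest. Its log2FC was 0.97, 0.84 and 1.32 in het1, het2 and homo cells and 1.31, 0.84 and 1.59 in tumours, each with an SE of 0.050 to 0.065.

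CTSL, a cysteine protease of broad specificity, rose in all 3 lines by 0.33, 0.94 and 0.57 in cells. In tumours it had 407, 407, 421 and 427 CPM in het1, 848, 1220, 984 and 1201 in het2 and 989, 726, 1043 and 808 in homo, against 333, 300, 307 and 284 in WT. The het2 and homo tumours lay far above WT but spread widely among themselves. The log2FC was 0.44 (SE 0.114, adjusted p 0.00327), 1.80 (SE 0.117, 9.13e-10) and 1.54 (SE 0.116, 3.24e-09). CTSZ, a carboxypeptidase, and CTSA, which also protects beta-galactosidase and sialidase from degradation, rose in all 6 comparisons, by 0.21 to 0.91 and by 0.49 to 1.48.

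CTSS, a cysteine protease best known from antigen-presenting cells, went the other way. It had 12.7, 14.0 and 11.4 CPM in het1 cells, 7.56, 6.77 and 6.48 in het2 cells and 2.36, 2.23 and 2.15 in homo cells, against 17.7, 17.6 and 18.8 in WT cells. The lines were fully separated, with homo lowest. In tumours the levels were 83.3, 87.3, 94.4 and 86.9 CPM in het1, 79.5, 63.9, 71.4 and 75.2 in het2 and 17.1, 30.7, 17.4 and 23.6 in homo, against 123, 109, 111 and 117 in WT. Again every edited library lay below every WT library. The log2FC was -0.51, -1.38 and -3.00 in cells and -0.39 (adjusted p 0.0292), -0.67 (0.000883) and -2.37 (1.28e-09) in tumours. The homo level was thus 8.02-fold lower in cells and 5.17-fold lower in tumours. The het1 tumour call was lost without WT replicate 0 or 4 and without het1 replicate 1, 2 or 4, with log2FC of -0.38 to -0.35 and an adjusted p up to 0.0792.

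Summed CPM of 10 myeloid markers was 19.0 to 22.6 in het1 tumours, 28.5 to 36.6 in het2 and 23.5 to 26.1 in homo, against 34.3 to 48.2 in WT tumours. In cultured cells, where no host cells are present, the same sum was 9.95 to 10.8, 12.2 to 13.3 and 13.6 to 14.4 in het1, het2 and homo, against 12.2 to 12.6 in WT. Of the 10, TYROBP, CD163 and FCER1G were at or near 0 in tumours, and of the 7 that could be tested 2, 2 and 4 were raised and 3, 2 and 1 lowered in het1, het2 and homo tumours. LYZ, the most abundant of them in WT, fell in the tumours of all 3 lines, by 2.28, 0.97 and 1.80 on the log2 scale, while CD14 rose, by 1.04, 1.87 and 1.19. The sources used here do not state how mouse reads from the xenografts were treated, and these marker counts may depend on it. The part of myeloid cells in the CTSS levels of tumours was not tested.

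The remaining peptidases differed between the lines. CTSB, a cysteine protease, rose in het2 cells (1.24) and fell in het1 and homo cells (-0.29 and -0.27), and its libraries read 710, 711 and 688 CPM in het2, 245, 241 and 242 in het1 and 246, 245 and 247 in homo, against 296, 301 and 293 in WT. CTSC, which activates serine proteases of immune granules, and CTSD, the main aspartyl protease, showed the same pattern in culture. Their log2FC was 0.84 and 0.82 in het2, -0.15 and -0.32 in het1, and -0.10 and -0.09 in homo cells. The homo call of CTSD (adjusted p 0.0328) was lost without WT replicate 1 and without homo replicate 1 or 3, with log2FC of -0.09 to -0.06 and an adjusted p up to 0.151. CTSK, a collagen-degrading protease, stayed under 5.1 CPM in every library.

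**Figure D2:**
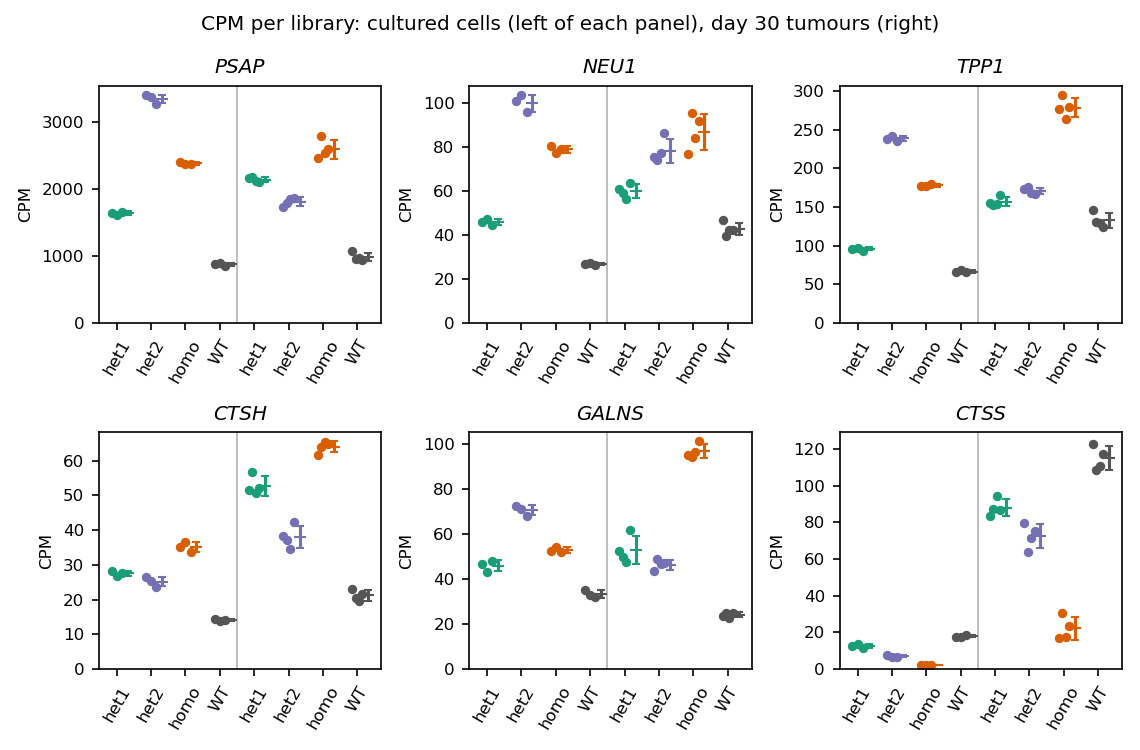
CPM of 6 genes (PSAP, NEU1, TPP1, CTSH, GALNS and CTSS) in every library of cultured cells and day 30 tumours, by line, with the group mean and SD as a bar beside the points. Edited lines stand above WT for the first 5 genes and below WT for CTSS, where homo is lowest in both settings.

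Of the 13 glycosidases, 10, 11 and 11 were raised and 2, 2 and 1 lowered in het1, het2 and homo cells. In tumours 10, 9 and 12 were raised and 0, 2 and 0 lowered. Raised shares of all genes were 32%, 35.1% and 35.4% in these cells and 26.8%, 24.4% and 27.1% in these tumours. NEU1, a sialidase, had 45.7, 47.2 and 44.3 CPM in het1 cells, 101, 103 and 95.8 in het2 cells and 80.2, 77.1 and 79.2 in homo cells, against 26.7, 27.3 and 26.2 in WT cells. In tumours it had 60.9, 59.1, 56.3 and 63.6 CPM in het1, 75.5, 73.8, 77.4 and 86.2 in het2 and 76.9, 95.3, 83.9 and 91.6 in homo, against 46.6, 39.5, 42.3 and 42.1 in WT. The edited lines lay above WT in every library of both settings. The log2FC was 0.78, 1.90 and 1.56 in cells (SE 0.038 each) and 0.49, 0.88 and 1.03 in tumours (SE 0.069 to 0.070), with a largest adjusted p of 4.39e-06.

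GAA, which degrades glycogen, rose by 0.46, 1.41 and 1.10 in het1, het2 and homo cells and by 0.64, 0.73 and 0.89 in tumours. HEXA, a subunit of beta-hexosaminidase, rose by 0.39, 1.08 and 0.60 in cells and by 0.82, 0.65 and 0.81 in tumours. GLA and GLB1, an alpha- and a beta-galactosidase, GALC, which cleaves galactosylceramide, and FUCA1, an alpha-fucosidase, rose in all 6 comparisons by 0.14 to 1.05. GUSB, a beta-glucuronidase often used as a reference gene, rose in het1 cells and tumours (0.36 and 0.82), fell in het2 cells and tumours (-0.31 and -0.27), and in homo was raised in tumours alone (0.32). IDUA, an iduronidase, was raised in the 3 lines in culture, but its het1 call (0.29) was lost without WT replicate 2 or 3 and without het1 replicate 1 or 3, with log2FC of 0.18 to 0.29 and an adjusted p up to 0.204.

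FUCA2, a fucosidase that is largely secreted, changed in opposite directions in the 2 settings in every line. In culture it had 72.6, 72.8 and 71.1 CPM in het1, 52.5, 51.8 and 51.3 in het2 and 35.8, 37.2 and 38.2 in homo, against 87.6, 88.3 and 90.2 in WT. In tumours it had 162, 174, 168 and 178 CPM in het1, 129, 136, 120 and 144 in het2 and 194, 172, 186 and 179 in homo, against 77.7, 74.4, 75.6 and 77.7 in WT. All edited libraries were below WT in culture and above WT in tumours, and homo was the farthest from WT in culture. The log2FC was -0.30, -0.77 and -1.26 in cells (SE 0.033 to 0.034) and 1.16, 0.79 and 1.26 in tumours (SE 0.056 to 0.057), with a largest adjusted p of 1.37e-09.

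Of the 5 sulfatases, 4, 5 and 4 were raised in het1, het2 and homo cells and none was lowered. In tumours 4, 3 and 3 were raised. Raised shares of all genes were 32%, 35.1% and 35.4% in these cells and 26.8%, 24.4% and 27.1% in these tumours. GALNS, which removes sulfate from keratan and chondroitin sulfate, had 46.5, 43.1 and 48.1 CPM in het1 cells, 72.4, 71.1 and 67.9 in het2 cells and 52.2, 54.3 and 52.0 in homo cells, against 35.2, 32.7 and 32.0 in WT cells. In tumours it had 52.3, 49.7, 47.5 and 61.8 CPM in het1, 43.3, 48.6, 46.4 and 47.0 in het2 and 94.8, 94.2, 96.3 and 101 in homo, against 23.7, 25.0, 22.8 and 25.1 in WT. The homo tumours formed a group well above the others. Their log2FC of 2.00 (SE 0.069, adjusted p 4.19e-15) was the greatest of the 42 genes in any tumour comparison with WT, and the values in het1 and het2 tumours were 1.13 and 0.94. ARSA and ARSB, the arylsulfatases A and B, rose in all 6 comparisons by 0.24 to 1.12. IDS, an iduronate sulfatase, was raised in the 3 lines in culture (0.13, 0.30 and 0.24), raised in het1 tumours (0.38) and lowered in homo tumours (-0.25). The homo tumour call of IDS was lost without WT replicate 1 or 2 and without homo replicate 4 or 5, with log2FC of -0.24 to -0.21 and an adjusted p up to 0.0821.

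Of the 7 lipid hydrolases and lipid transfer proteins, 4, 7 and 5 were raised in het1, het2 and homo cells and 4, 5 and 6 in tumours. Raised shares of all genes were 32%, 35.1% and 35.4% in these cells and 26.8%, 24.4% and 27.1% in these tumours. PSAP had 1645, 1607 and 1656 CPM in het1 cells, 3395, 3367 and 3275 in het2 cells and 2399, 2371 and 2367 in homo cells, against 883, 888 and 845 in WT cells. In tumours it had 2163, 2176, 2111 and 2106 CPM in het1, 1728, 1795, 1851 and 1864 in het2 and 2454, 2784, 2531 and 2602 in homo, against 1064, 949.8, 967 and 943 in WT. No library overlapped WT in either setting, and het2 was the highest line in culture but the lowest edited line in tumours. The rises were 1.88-fold, 3.84-fold and 2.73-fold in het1, het2 and homo cells and 2.18-fold, 1.85-fold and 2.64-fold in tumours, with log2FC SE of 0.023 to 0.055 and a largest adjusted p of 4.75e-11.

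GM2A, the activator protein for ganglioside GM2 breakdown, rose by 0.63, 1.28 and 1.18 in het1, het2 and homo cells and by 0.67, 0.56 and 1.61 in tumours. ASAH1, acid ceramidase, rose in het2 and homo in both settings (1.29 and 0.59 in cells, 0.87 and 0.28 in tumours) and was not called in het1, where log2FC was 0.04 in cells and -0.10 in tumours. SMPD1, acid sphingomyelinase, rose in het1 and het2 cells (0.36 and 1.00) and in het2 and homo tumours (0.56 and 0.57). NPC2, the soluble partner of NPC1, had 94.8, 92.3 and 89.7 CPM in het2 cells against 38.9, 41.8 and 36.6 in WT cells, but 45.3, 46.2, 51.2 and 48.1 in het2 tumours against 63.9, 54.7, 56.3 and 58.4 in WT tumours. The het2 libraries were above WT in culture and below it in tumours, with log2FC of 1.24 and -0.29 (adjusted p 3.71e-23 and 0.00947).

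The transcription factors moved apart, TFE3 upwards in culture and TFEB downwards in homo. TFE3 rose by 0.09, 0.35 and 0.13 in het1, het2 and homo cells (adjusted p 0.0108, 1.00e-11 and 0.000464) and by 0.14 in homo tumours (0.0225), while log2FC in het1 and het2 tumours was 0.05 and 0.04. The het1 culture call of TFE3 was lost without WT replicate 2 or 3 and without het1 replicate 3, with an adjusted p up to 0.103. Its homo tumour call was lost without WT replicate 2 or 4 and without homo replicate 1 or 5, with an adjusted p up to 0.0938. TFEB, at 1.20 to 2.56 CPM in cells, had 1.49, 1.20 and 1.47 CPM in homo cells against 2.21, 2.42 and 2.33 in WT cells. Homo cells did not overlap WT, and TFEB fell there by 0.75 on the log2 scale (SE 0.149, adjusted p 4.53e-05). It fell by 0.50 and 0.61 in het2 and homo tumours (adjusted p 0.0136 and 0.00346), and was not called in het1 cells, het2 cells or het1 tumours. None of the 6 comparisons called TFEB raised. The counts are of mRNA and give neither the amount nor the place of these proteins.

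The calls can be set beside the promoter letters. Of the 8 genes with CACGTG in the promoter, 6, 8 and 5 were raised in het1, het2 and homo cells and 6, 7 and 8 in tumours. Of the 23 matched genes without it, 17, 19 and 16 were raised in cells and 16, 15 and 19 in tumours. No difference between these sets was tested.

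A joint fit of cells and day 30 tumours gave the change against WT in tumours minus the change in culture for each line. Both settings were scaled together there, so a difference need not equal the separate log2FC values subtracted. The joint values mostly lay somewhat above the subtracted ones. For TPP1 in het1 the separate values were 0.53 in culture and 0.241 in tumours, while the joint difference was -0.219. The difference was called positive for 23 of the 42 genes and called negative for 2 in het1, with 24.2% and 15% of all genes. In het2 it was positive for 6 and negative for 24, with 27.2% and 20.4% of all genes. In homo it was positive for 24 and negative for 8, with 28.7% and 20.4%. The median difference of the 42 genes was 0.25, -0.31 and 0.44 on the log2 scale in het1, het2 and homo, and the median of all genes was 0.10, 0.07 and 0.11. Under RLE scaling the median of all genes was 0.021, 0 and 0.041. The difference was then positive for 18, 5 and 24 of the 42 and negative for 3, 27 and 11, so the counts depend on the scaling. The het2 line, which had the strongest rises in culture, thus kept less of them in tumours: 8 of 13 glycosidases and 6 of 7 lipid genes had a called negative difference there. Examples in het2 are NPC2 (-1.44), TPP1 (-1.40), PSAP (-0.97), NEU1 (-0.94) and LAMP2 (-0.88). Fibroblast markers summed to 43.2 to 45.6 CPM in het1 cells, 44.2 to 46.5 in het2 cells and 61.5 to 69.4 in homo cells, against 7.34 to 8.31 in WT cells. In tumours they summed to 107 to 290 CPM in het1, 105 to 350 in het2 and 316 to 484 in homo, against 217 to 362 in WT. Their part in these differences was not tested.

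Genes called in opposite directions in culture and tumours numbered 5 in het1, 5 in het2 and 6 in homo. The difference itself was called for each, but opposite calls in the same libraries make this likely beforehand, so it adds no separate support. Of all genes tested in both tables, 7.96%, 11.2% and 12% were called in opposite directions in het1, het2 and homo. The counts of the 42 were not far from these shares. In het1 CTSB, CTSC, FUCA2, LIPA and PPT1 were lowered in culture and raised in tumours. In homo the same held for NPC1, CTSC, CTSD, FUCA2 and PPT1, and the reverse for IDS. In het2 FUCA2 and NPC1 were lowered in culture and raised in tumours, and NPC2, MAN2B1 (a mannosidase) and SGSH (a sulfamidase) were raised in culture and lowered in tumours. FUCA2 had the greatest positive difference in each line, at 1.53 (SE 0.071), 1.65 (SE 0.071) and 2.60 (SE 0.072), with adjusted p of 3.25e-17, 1.92e-18 and 1.26e-23. LIPA and PPT1, an acid lipase and a thioesterase, rose little in het1 tumours (0.16 each, adjusted p 0.0476 and 0.0441), and both calls were lost without any 1 of the 4 WT libraries and without het1 replicate 2 or 4, the LIPA call also without het1 replicate 3, with adjusted p up to 0.188 and 0.122. The tumour calls of IDS in homo and NPC1 in het2 and the culture call of CTSD in homo were lost for some omitted libraries, as given with each gene, with adjusted p up to 0.0821, 0.0558 and 0.151. Calls in the same direction in both settings were 24, 29 and 27 of the 42 in het1, het2 and homo, against 32.1%, 29.3% and 32.7% of all genes.

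**Figure D3:**
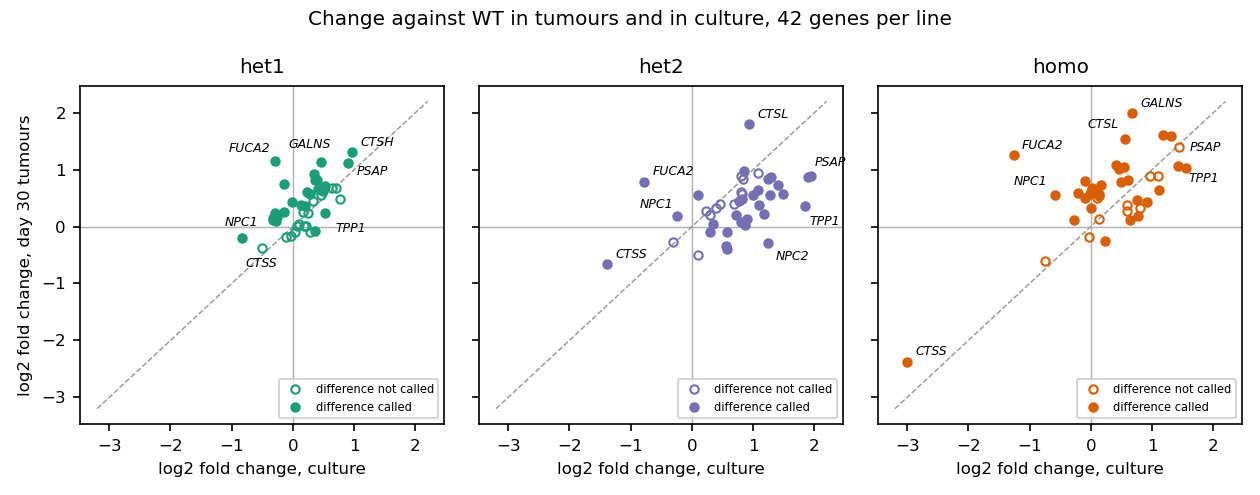
Log2 fold change against WT in day 30 tumours (vertical axis) and in culture (horizontal axis) for the 42 genes, 1 panel per line, with filled points where the difference between settings was called and a dashed line of equal change. Most genes lie in the upper right quadrant, het2 points lie mostly below the line, and FUCA2 lies in the upper left quadrant of each panel. Called differences come from the joint fit with its own scaling, so they do not follow exactly from the distance to the line.

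Homo was also compared with the mean of the het lines. In culture 10 genes were higher and 19 lower in homo, with 25% and 24.9% of all genes, and the median difference was -0.07. In tumours 27 were higher and 4 lower, with 22.1% and 22.7% of all genes, and the median was 0.26. LAMP1 (1.04), GM2A (0.99), GALNS (0.97) and TPP1 (0.77) had the greatest rises in homo tumours. CTSS was lower in homo in both settings, by 2.06 in cells (adjusted p 7.49e-20) and by 1.85 in tumours (2.49e-08). The het mean joins 2 lines that differed from each other in culture, so it describes neither.

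Summed over the 42 genes, libraries held 5442 to 5504 CPM in het1 cells, 9336 to 9569 in het2 cells and 6841 to 6945 in homo cells, against 4285 to 4372 in WT cells. In tumours the sums were 7517 to 7809 in het1, 7373 to 8197 in het2 and 8816 to 9306 in homo, against 4823 to 5354 in WT. No edited library overlapped WT, and het2 ranked first in cells whereas homo ranked first in tumours. The tables were scaled separately, so levels of cells and tumours are not set against each other here.

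**Figure D4:**
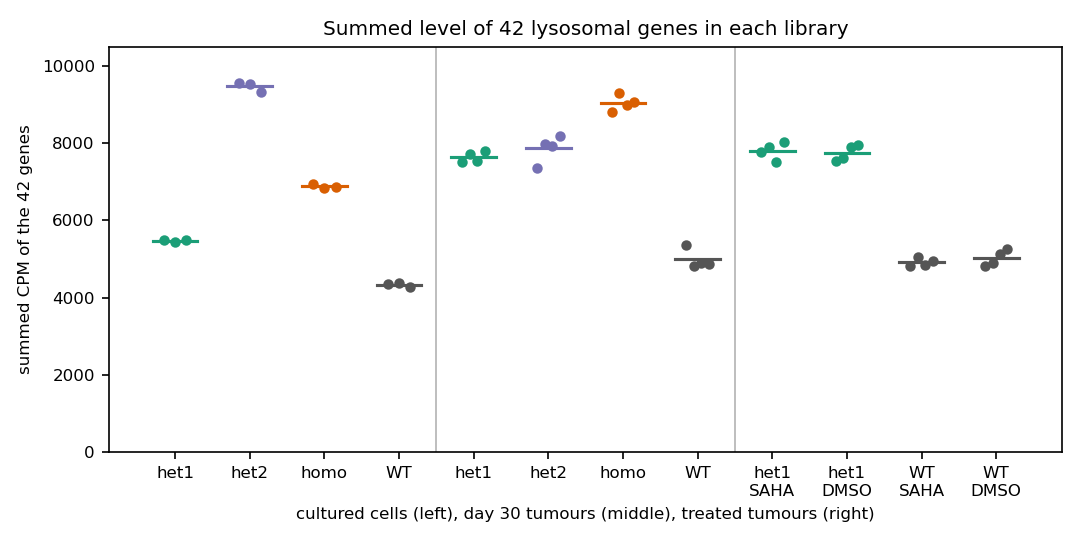
Summed CPM of the 42 genes in each of the 44 libraries, by group, with a bar at the group mean. All libraries of edited lines lie above all WT libraries of the same table, and the SAHA and DMSO libraries of a line overlap.

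The DMSO tumours gave a second comparison of het1 with WT in other libraries. Here 26 genes were raised and 4 lowered in het1, with 27.3% and 26.8% of all genes tested, and the median log2FC was 0.43. Of the 29 genes raised in het1 day 30 tumours, 24 were raised in het1 DMSO tumours too, and CTSS and NPC1 were lowered in both. No member was called in opposite directions. The share of all genes called alike or oppositely in these sets of tumours was not computed, so these counts have no background. CTSH (1.37), GALNS (1.26), FUCA2 (1.24), GUSB (1.16), ARSB (1.15), CD63 (1.07), HEXA (1.06) and PSAP (1.03) were the 8 that rose at least 2-fold, as 11.1% of all genes did. NPC2 fell by 0.35 (adjusted p 0.0019) and TFEB by 0.48 (0.0131), while neither was called in het1 at day 30. The TFEB call was lost without WT DMSO replicate 8 (adjusted p 0.0563), and the NPC1 call (-0.23) without WT DMSO replicate 2 or without het1 DMSO replicate 3 (up to 0.0768). Myeloid markers summed to 18.2 to 23.0 CPM in het1 DMSO tumours against 43.7 to 77.2 in WT DMSO tumours, and their part in these values was not tested.

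Under SAHA the 42 genes were called at shares not far from those of all genes tested. In WT tumours 0 genes were called by edgeR, as were 0% of all genes tested. An unadjusted edgeR p under 0.05 was reached by 4 of the 42, but the share of all genes reaching it was not computed. DESeq2 also called 0 of the 42, with 151 of all genes called. In het1 tumours 5 were raised and 4 lowered by SAHA against DMSO, with 7.68% and 9.15% of all genes. The raised genes were MCOLN1 (0.30), NPC1 (0.29), NEU1 (0.27), SMPD1 (0.25) and MAN2B1 (0.21), and the lowered ones ARSB (-0.49), CTSS (-0.42), CTSC (-0.31) and TFE3 (-0.18). CTSS had 77.6, 90.7, 69.2 and 75.8 CPM in het1 SAHA tumours against 95.3, 111, 99.6 and 112 in het1 DMSO tumours, with no overlap and an edgeR adjusted p of 0.00143. The count of called genes was 5 without het1 DMSO replicate 3, without het1 SAHA replicate 1 and without het1 SAHA replicate 3. Leaving out libraries in turn ended the call of SMPD1 for all but het1 SAHA replicate 2 (adjusted p up to 0.087). It ended that of MCOLN1 for het1 DMSO replicates 2, 3 and 4 and het1 SAHA replicates 1 and 6 (up to 0.109), and that of TFE3 for het1 DMSO replicates 2 and 5 and het1 SAHA replicates 1 and 3 (up to 0.111). The calls of NPC1, NEU1 and CTSC were each lost for 2 libraries, het1 DMSO replicate 3 with het1 SAHA replicate 3 for NPC1, het1 DMSO replicate 3 with het1 SAHA replicate 6 for NEU1, and het1 SAHA replicates 1 and 3 for CTSC, with adjusted p up to 0.0514, 0.0584 and 0.0523.

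The SAHA effect itself differed between het1 and WT for 3 of the 42 genes, 2 of them more positive in het1 and 1 more negative, with 2.01% and 2.71% of all genes. NEU1 had 75.7, 69.2, 67.4 and 77.0 CPM in het1 SAHA tumours and 61.7, 54.3, 59.97 and 63.6 in het1 DMSO tumours. In WT it had 35.2, 42.0, 34.8 and 38.4 CPM with SAHA and 38.8, 40.2, 46.2 and 46.0 with DMSO. The het1 libraries did not overlap between treatments and the WT libraries did, and the difference of effects was 0.46 (SE 0.104, adjusted p 0.0167). For SMPD1 it was 0.39 (SE 0.109, 0.046), which was lost in 15 of 16 omissions, all but that of WT SAHA replicate 4, with an adjusted p up to 0.102. ARSB had 43.4, 45.8, 37.8 and 49.1 CPM in het1 SAHA tumours and 56.4, 73.2, 54.8 and 62.6 in het1 DMSO tumours, with 33.7, 34.6, 28.4 and 30.1 in WT SAHA tumours and 22.5, 32.7, 30.1 and 25.7 in WT DMSO tumours. Its difference of -0.68 (SE 0.166, adjusted p 0.0295) was lost without WT DMSO replicate 8, WT SAHA replicate 3 or 4, het1 DMSO replicate 3 or 5, or het1 SAHA replicate 1 or 3, with an adjusted p up to 0.0647. Of the 3 calls, 1 remained without each of these libraries other than WT SAHA replicate 4.

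Other genes of the pathway can be read against the shares of all genes called. Raised calls made up 32%, 35.1% and 35.4% in het1, het2 and homo cells and 26.8%, 24.4% and 27.1% in tumours. Lowered calls made up 30.8%, 33.3% and 35.1% in these cells and 24.8%, 24.8% and 27.7% in tumours. Of 17 further lysosomal enzymes, 11, 13 and 14 were raised in het1, het2 and homo cells and 14, 16 and 16 in tumours, with at most 2 lowered. CTSV and LGMN, 2 cysteine proteases, rose by 2.24 and 2.07 in homo tumours. Of 16 V-ATPase genes, 7, 14 and 12 were raised and 2, 0 and 3 lowered in cells, and 8, 9 and 10 were raised and 3, 2 and 1 lowered in tumours, and the accessory subunit ATP6AP1 rose by 0.64, 0.76 and 1.20 in het1, het2 and homo tumours. In the SAHA comparison of het1 tumours 7 of these 16 were raised and 0 lowered, with 7.68% and 9.15% of all genes. A called positive difference of effects was found for 6 of the 16, with 2.01% of all genes. These calls were not checked by leaving out libraries.

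Of 12 genes for tagging and sorting of hydrolases, 7, 8 and 8 were raised and 3, 2 and 2 lowered in het1, het2 and homo cells, and 6, 5 and 9 were raised and 2, 3 and 1 lowered in tumours. IGF2R, the large mannose 6-phosphate receptor, rose by 1.55 in het2 and 0.83 in homo cells. SORL1, a sorting receptor, fell in all 6 comparisons, by 0.72 to 2.23. Among 20 genes of the TFEB family and its upstream nutrient sensing, 7, 13 and 7 were raised and 7, 3 and 7 lowered in cells, and 6, 3 and 3 were raised and 8, 5 and 10 lowered in tumours. RRAGD, a GTPase of this pathway, rose by 0.70, 1.87 and 1.20 in het1, het2 and homo cells, and MITF, a relative of TFEB, fell by 0.60, 1.29 and 0.30 in cells and by 0.64, 0.47 and 2.07 in tumours.

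Of 19 autophagy genes, 11, 14 and 11 were raised and 5, 2 and 6 lowered in het1, het2 and homo cells, and 7, 9 and 7 were raised and 5, 3 and 3 lowered in tumours, where the median log2FC in homo was 0.02. GABARAPL1, which is attached to autophagosome membranes, rose by 2.34, 1.69 and 2.51 in cells and by 0.99, 0.62 and 0.83 in tumours, while ATG16L1, part of the complex that attaches it, fell by 1.43, 1.17 and 1.64 in cells and by 0.84, 0.22 and 0.74 in tumours. Of the other lysosomal membrane genes, 7, 10 and 6 of the 14 tested were raised and 3, 3 and 4 lowered in het1, het2 and homo cells. In tumours 5, 8 and 4 of the 15 tested were raised and 5, 4 and 4 lowered, so rises and falls were equal in number in het1 and homo. Of the cathepsin inhibitors, 3, 2 and 1 of the 6 tested were raised and 2, 4 and 4 lowered in het1, het2 and homo cells. In tumours 0, 2 and 1 of the 8 tested were raised and 6, 4 and 7 lowered. CST3, the widely secreted cystatin C, rose by 0.22, 0.21 and 0.37 in het1, het2 and homo cells and fell by 0.39, 0.48 and 0.73 in their tumours.

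**Figure D5:**
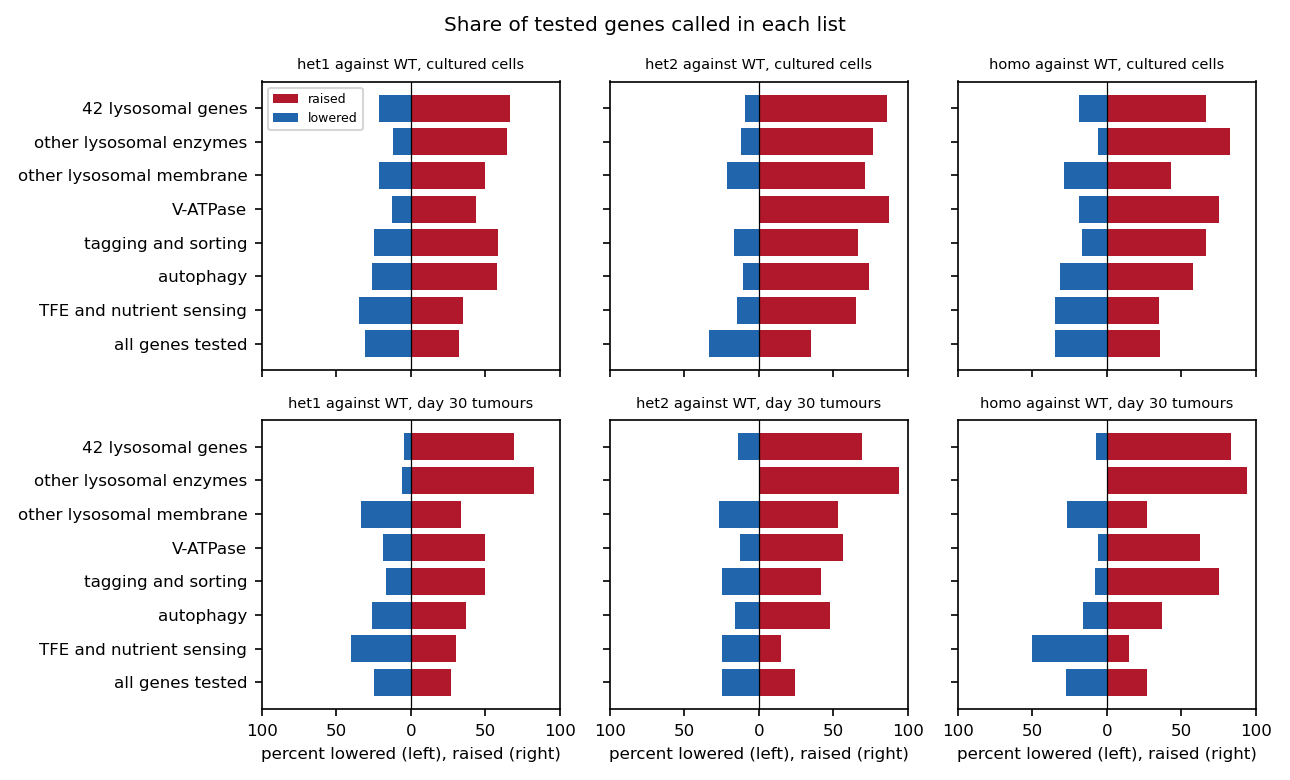
Percent of the tested genes called raised (right, red) and lowered (left, blue) against WT in the 42 lysosomal genes, 6 lists of related genes and all genes tested, for het1, het2 and homo in culture (top) and day 30 tumours (bottom). The further lysosomal enzymes lie mostly on the raised side in every panel. Genes of the TFEB family and nutrient sensing have more lowered than raised members in the tumours of all 3 lines. In het2 tumours their lowered count, 5 of 20, is near the 24.8% of all genes that were lowered.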

How the data were processed

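Polyadenylated RNA was sequenced after library preparation with a stranded mRNA kit, per the labels' protocols. The deposited tables hold raw counts per gene. HISAT2, HTSeq and bcl2fastq and the build hg38 are named in the submitters' processing notes, whereas the strand setting, annotation release and treatment of mouse reads from xenografts were not given in the sources used here. Identifiers were matched to GENCODE release 29.

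Each table of counts was fitted separately in edgeR 4.0.16 (R 4.3.3): filterByExpr, TMM scaling and the quasi-likelihood test, with Benjamini-Hochberg adjustment over all genes tested (21704 for cells, 22533 for day 30 tumours, 22586 for treated tumours). Cells and day 30 tumours were also fitted together over 24227 genes for the difference of changes, with TMM scaling over both settings. All groups of a table share 1 estimate of the spread. SE is the absolute log2FC over the square root of F. CPM are TMM-scaled within a table, and TPM use union exon lengths. The members and lists were chosen with earlier results of these data known.

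Named genes are TFEB, TFE3, LAMP1 and LAMP2, up to 6 rises and 6 falls per comparison among called members with a group mean of at least 5 CPM, members called alike in all 3 lines or in opposite directions in culture and tumours, and up to 2 rises and 2 falls per related list. Other members are given by level or range. The tests were checked on simulated data with 100 changed genes per size, drawn from genes with a mean of at least 1 CPM. Far fewer genes were changed there than were called in the real comparisons of lines with WT. For het1 cells 90% of changes of 0.5 and 100% of changes of 1 on the log2 scale were recovered. There were 14 false calls over 21704 genes. For het1 day 30 tumours 68% and 94% were recovered, with 8 false calls over 22533 genes. For SAHA in WT tumours it was 67% and 90%, with 5 false calls over 22586. For the het1 difference of changes it was 51% and 86%, with 6 false calls over 24227. Alternatives were RLE scaling, DESeq2 1.42.0, limma 3.58.1 (difference of changes), other low-count filters, a 2-fold minimum, only the groups compared, a replicate block and leaving out each library.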

Additional observations from a re-analysis of the deposited data

Results flagged for a closer look

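The effect of SAHA in het1 minus that in WT was called by edgeR for NEU1 (0.457 on the log2 scale), SMPD1 (0.389) and ARSB (-0.678).

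The change against WT in day 30 tumours minus that in culture was called for the following genes among those named. In het1 the differences were 1.527 for FUCA2, 0.969 for CTSC, 0.737 for GALNS, 0.704 for NPC1, 0.651 for CD63, 0.598 for CTSB, 0.561 for PPT1, 0.484 for LIPA, -0.219 for TPP1 and -0.37 for SMPD1, the last lost without WT cell replicate 2 or 3 (adjusted p up to 0.0714). In het2 the positive differences were 1.65 for FUCA2, 0.946 for CTSL, 0.804 for CTSS, 0.536 for PPT1, 0.519 for NPC1 and 0.221 for CTSC. The negative ones in het2 were -1.443 for NPC2, -1.397 for TPP1, -0.969 for PSAP, -0.941 for NEU1, -0.879 for LAMP2, -0.876 for MAN2B1, -0.814 for SGSH, -0.624 for LAMP1 and -0.219 for TFE3. In homo the positive differences were 2.598 for FUCA2, 1.414 for GALNS, 1.213 for NPC1, 1.059 for CTSL, 0.973 for CTSC, 0.891 for PPT1, 0.756 for LAMP1 and 0.675 for CTSD. The negative ones in homo were -0.51 for NPC2, -0.452 for MAN2B1, -0.452 for NEU1, -0.407 for IDS, -0.406 for CTSZ, -0.39 for ARSA and -0.197 for LAMP2. The LAMP2 call in homo was lost without WT cell replicate 1, homo cell replicate 3, WT tumour replicate 0 or homo tumour replicate 4 (adjusted p up to 0.0697).

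Among 220 combinations of gene and group of 4 libraries, 12 had a library apart from the other 3 by Dixon's 95% criterion, which chance alone passes in about 5% of groups. Het1 tumour replicate 4 was apart for IDS (95.8 CPM), LAMP1 (119.9) and MCOLN1 (9.361), het1 tumour replicate 1 for FUCA1 (60.63) and het1 tumour replicate 2 for GALC (126.0). Het2 tumour replicate 4 was apart for LAMP1 (116.6 CPM) and het1 SAHA replicate 1 for TFE3 (70.15). WT tumour replicate 0 was the highest WT library for LAMP2 (205.1 CPM), GAA (157.6), GALC (87.29) and ARSA (22.25). WT DMSO replicate 2 was the lowest of its group for CTSH (17.45 CPM).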

How the results depend on the processing

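No named gene called in the main or the alternative run changed direction under that alternative. Changes of sign in genes called in neither run were not counted. With a minimum of 2-fold, 0, 15 and 9 of the 42 genes stayed called in het1, het2 and homo cells against WT. Of all genes, 19.6%, 23.7% and 26.6% did. In their day 30 tumours 4, 1 and 12 stayed called, against 18.5%, 14.1% and 20% of all genes. In het1 DMSO tumours 8 did, against 20.5%. The same minimum left 1 gene in cells (9.98% of all genes) and 2 in tumours (10.5%) for homo against the het mean. It left 0 for SAHA in het1 tumours (2.51% of all genes) and 0 for the difference of SAHA effects (0.956%). For the difference between settings it left 1, 3 and 4 in het1, het2 and homo, against 13.3%, 17.8% and 19.9% of all genes.

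Samples with the same replicate number did not deviate together: the correlations of their deviations were -0.04 to 0.03 in cells, -0.13 to 0.11 in day 30 tumours and -0.12 to 0.09 in treated tumours, so the numbers do not pair the samples. With the replicate number as a block, 0 genes were called for SAHA in het1 tumours and 0 for the difference of SAHA effects, and the other counts were within 1.5 times those given.

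Leaving out each library in turn gave 34 to 37, 40 to 41 and 33 to 36 called genes in het1, het2 and homo cells, 27 to 30, 34 to 35 and 35 to 39 in their tumours, and 28 to 31 in het1 DMSO tumours. It gave 27 to 30 in cells and 27 to 31 in tumours for homo against the het mean, 5 to 10 for SAHA in het1 tumours, 0 for SAHA in WT tumours and 1 to 3 for the difference of SAHA effects. For the difference between settings it gave 21 to 25, 28 to 31 and 31 to 34. RLE scaling gave 18 positive and 3 negative differences in het1, 5 and 27 in het2 and 24 and 11 in homo. SAHA in WT tumours gave 36 calls over all genes with no low-count filter. The causes were not tested. Depth was not varied.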
